A study of Homo sapiens with 4 samples.

Results

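Genes of the short arm of chromosome 12 (12p) were compared between 4 lines grown from human germ cell tumours. The 59 genes were taken from a fixed list that runs from KDM5A, near the end of the arm, to PPFIBP1, towards the centromere, out of 19775 genes with a probe set of their own on the array. All 59 passed the filter on low values that 14926 genes passed. RNA was measured on Affymetrix arrays, 1 array per line. By the labelled histology of the primary tumour, the seminoma line is TCam-2 and the yolk sac tumour line is GCT44. GCT27 carries the label embryocarcinoma, and NT2D1 that of a teratoma, from a lung metastasis of a testicular tumour. TCam-2 was grown in RPMI-1640 and the other 3 lines in Dulbecco's modified Eagle medium, all with fetal bovine serum, so medium and line cannot be told apart for TCam-2. Each subtype is a single line without a replicate, so no difference between lines carries a replicate error, and a difference belongs to that line and not to its subtype. In bulk RNA of a culture, fewer cells making a transcript and less of it per cell cannot be told apart.

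Gain of 12p, often as an isochromosome made of a pair of short arms, is the typical chromosome change of germ cell tumours of the adult testis. The arm carries the cell cycle gene CCND2, the glycolytic enzymes GAPDH, TPI1 and ENO2, the glucose transporter SLC2A3 and several genes of chromatin and protein synthesis. Gene copy number was not measured in the values used here, and RNA levels were compared without it.

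Marker genes were checked first. The 5 seminoma line markers summed to 48299 in TCam-2, against 1901 to 2684 in the other lines, and the 5 yolk sac tumour markers to 66995 in GCT44, against 506 to 2068. The 4 markers of embryonal carcinoma and pluripotency with a probe set of their own summed to 64002 in GCT27 and 63162 in NT2D1, against 18403 in TCam-2 and 19796 in GCT44. SOX2 reached 20575 in NT2D1 and 18309 in GCT27, against 391 in TCam-2 and 6.41 in GCT44. For SOX2, the line labelled teratoma thus stood at the level of the embryonal carcinoma line. DNMT3B had 11360 in NT2D1 and 23760 in GCT27, against 2841 in TCam-2 and 2377 in GCT44. LIN28A, the largest part of the sums in TCam-2 and GCT44, had 14828 and 17340 there, against 30531 in NT2D1 and 21142 in GCT27. FGF4 had 696 in NT2D1 and 791 in GCT27, against 344 in TCam-2 and 73.1 in GCT44. Of the neural markers, which summed to 23784 in NT2D1 against 4572 to 17022 elsewhere, MAP2 had 5940 in NT2D1 and at most 78.2 in the others. The rest of that list set NT2D1 less apart from GCT27. TUBB3 had 15501 in NT2D1 and 15223 in GCT27, and NES had 2259 and 1715. PAX6 had 85.3 in NT2D1 and lay below the floor in the other lines. The 5 fibroblast markers summed to 7331 to 11094, but single markers differed between lines. COL1A2 had 9209.5 in TCam-2 and 61.1 in NT2D1. COL1A1 had 792 in TCam-2 and 6093 in NT2D1, and THY1 had 124 in TCam-2 and 2334 in GCT27. Of the 4 blood cell markers measured, PTPRC and CD14 lay below the floor in all lines, CD3E exceeded it in GCT44 alone at 88.4, and HBB exceeded it in every line, at 141 to 263. The 5 proliferation markers summed to 24379 in TCam-2, 30241 in NT2D1, 37380 in GCT44 and 33902 in GCT27. Single markers did not share that order. MKI67 was highest in TCam-2 at 1733 and lowest in NT2D1 at 493, and BUB1 was lowest in GCT44 at 2178. TOP2A and CCNB1 were lowest in TCam-2, and CCNB1 and AURKA highest in GCT44. The part of the proliferation markers in the differences below was not tested.

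Intensities are on a linear scale, and values under 76.4, the median of all values on the 4 arrays, were set to that floor before log2 was taken, below which levels were not ordered. The listed 12p genes were bright. Their median level over the 4 lines stood at the 82.3 percentile of the genes compared, and 19 of the 59 stood in the top 10 percent. At least 1 line lay below the floor for 7 of the 59 genes (11.9%), against 33.7% of all genes compared.

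Across the arm, GCT27 had the highest levels and GCT44 the lowest. The median intensity of the 59 genes was 3719 in GCT27, 2450 in TCam-2, 2371 in NT2D1 and 1548 in GCT44, while over all genes compared the medians of the 4 lines lay between 415 and 429. GCT27 differed from the mean of the other 3 lines by a median of 0.50 on the log2 scale over the 59 genes and by -0.020 over all genes. GCT44 differed by -0.52 over the 59 genes and by -0.044 over all genes. The medians of TCam-2 (-0.16) and NT2D1 (0.10) lay nearer 0, against -0.059 and -0.031 over all genes. Both changed sign when another line was left out, that of TCam-2 to 0.015 without GCT27 and that of NT2D1 to -0.065 without GCT44. NT2D1 also stood at -0.060 when each gene was taken as the median over its probe sets. These are differences between single arrays and were not tested.

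The order was seen in many of the genes. GCT27 was the highest line for 30 of the 59 genes (50.8%), against 24.8% of all genes, and the lowest for 7 (11.9%), against 17.7%. GCT44 was the lowest line for 29 of the 59 (49.2%), against 21.9% of all genes, and the highest for 6 (10.2%), against 26.9%. Genes with lines tied at the floor had no lowest line. Such ties were commoner over all genes, where 33.7% had a line below the floor, against 11.9% of the 59. The shares of all genes with a given lowest line are smaller for that reason. In the direct pair, GCT27 exceeded GCT44 for 48 genes and fell short for 11, with a median difference of 0.77 (1.71-fold), against 0.00 over all genes. At 2-fold or more, 21 of the 59 genes were higher in GCT27 than in GCT44, where the background was 14.6% of all genes, and 2 were lower, where it was 12.4%. NT2D1 exceeded GCT44 by a median of 0.48, with 13 genes higher by 2-fold or more (background 13.1%) and 0 lower (background 12.5%). GCT27 exceeded TCam-2 by 0.43, with 12 genes higher (12.9%) and 4 lower (11.7%). It exceeded NT2D1 by 0.36, with 10 higher (11.1%) and 6 lower (9.72%). NT2D1 exceeded TCam-2 by 0.17, with 11 higher (13.1%) and 6 lower (13%). TCam-2 exceeded GCT44 by 0.17, with 9 higher (14%) and 1 lower (13.3%). These pairs share arrays with each other and are not independent.

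**Figure D1:**
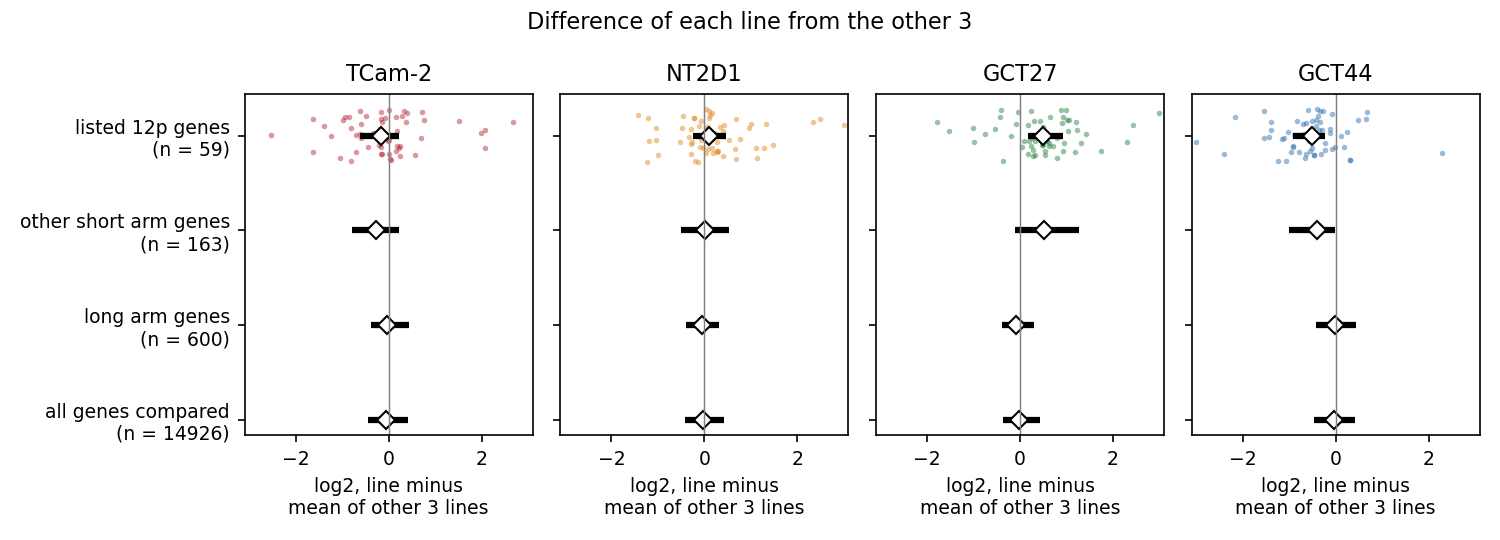
Difference of each line from the mean of the other 3 on the log2 scale (x axis), for the 59 listed 12p genes, 163 other short arm genes, 600 long arm genes and all 14926 genes compared (y axis). Diamonds are medians, black bars the quartiles over genes and points single listed genes, drawn at the edge beyond 3 on either side; the 2 short arm sets lie above 0 in GCT27 (medians 0.50 and 0.51) and below it in GCT44 (-0.52 and -0.41).

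Other genes of the short arm, which the list does not hold, followed the same order of lines. The reference gene order placed 163 further short arm genes and 600 long arm genes among those compared. The 163 genes had a median difference of 0.51 in GCT27, and 84 of them (51.5%) were highest there. Their medians were -0.41 in GCT44, -0.27 in TCam-2 and 0.01 in NT2D1. The long arm of the same chromosome lay at -0.08 in GCT27 and -0.01 in GCT44. Medians of whole chromosomes, both arms together, ran between -0.32 and 0.34 in GCT27 over the 21 other autosomes, the highest on chromosome 17. In GCT44 they ran between -0.25 and 0.46. Taken whole, chromosome 12 stood at -0.0099 in GCT27 and -0.084 in GCT44. Single arms of the other autosomes were not computed, so 12p was not compared with them.

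The GCT44 array stood apart in some controls. Its signal ratio of 3' to 5' probe sets was 4.21 for ACTB, against 2.49 to 2.97 on the other arrays. For GAPDH it was 1.04, within the 0.90 to 1.09 of the others. The controls added to its sample before hybridization read 0.29 above the 4-array mean on the log2 scale. On the GCT27 array they read -0.26 against that mean. The part of these controls in the difference between the lines was not tested. Scaling the arrays to these controls moved the median of the 59 genes to 0.84 in GCT27 and -0.91 in GCT44. It moved the median of all genes too, to 0.29 and -0.30, a distance from all genes of 0.55 in GCT27 and -0.61 in GCT44. Over 10 alternative settings of probe set, filter, floor and normalization, that distance ran between 0.45 and 0.59 in GCT27 and between -0.61 and -0.36 in GCT44.

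**Figure D2:**
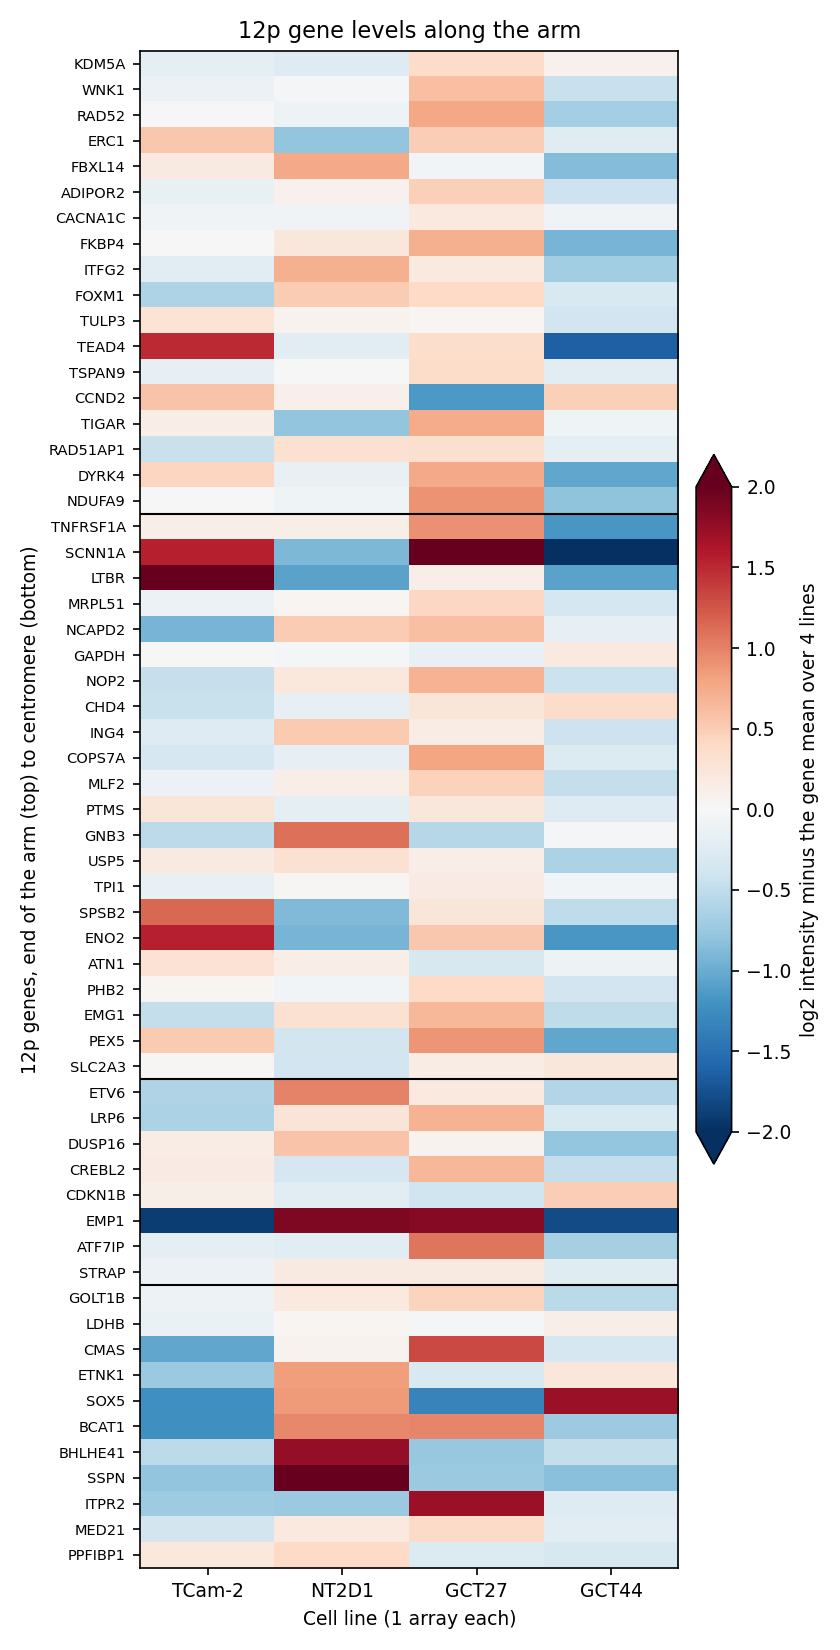
Levels of the 59 listed 12p genes (rows, from the end of the arm at the top to the centromere at the bottom) in the 4 lines (columns, 1 array each). Colour is floored log2 intensity minus the gene's mean over the 4 lines, limited to 2 either way, and black lines divide 4 stretches; the GCT27 column is mostly red and the GCT44 column mostly blue over the first 3 stretches.

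Along the arm, on the probe sets used, the pattern of the listed genes was similar over the first 3 stretches and different in the last. In GCT27 that change depended on the probe set and on the genes taken, as given below. In the 18 genes from KDM5A to NDUFA9 the median difference was 0.52 in GCT27 and -0.53 in GCT44. In the 22 genes from TNFRSF1A to SLC2A3 it was 0.43 in GCT27 and -0.53 in GCT44. In the 8 genes from ETV6 to STRAP it was 0.57 in GCT27 and -0.71 in GCT44. GCT27 lay above the mean of the other lines for 16 of 18, 19 of 22 and 7 of 8 genes in these stretches. GCT44 lay below it for 16 of 18, 19 of 22 and 7 of 8.

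In the 11 genes from GOLT1B to PPFIBP1, nearest the centromere, NT2D1 had the highest median difference (0.52) and TCam-2 the lowest (-0.95), with GCT27 at -0.052 and GCT44 at -0.43. NT2D1 lay above the mean of the other lines for 10 of these 11 genes and TCam-2 below it for 10. The order of this stretch depended on the probe set: when the probe sets of each gene were reduced to their median, NT2D1 stood at -0.079, GCT27 at 0.57, TCam-2 at -0.28 and GCT44 at -0.28. GCT27 had either sign here, from -0.12 without TCam-2 to 0.078 without NT2D1. The 17 other genes of this stretch had medians of 0.07 in NT2D1, 0.72 in GCT27 and -0.28 in GCT44. Of these 17, GCT44 lay above the mean of the other lines for 8 (47.1%), against 46.2% of all genes. It was the highest line for 5 (29.4%), against 26.9% of all genes, so the low levels of GCT44 were less marked here. In TCam-2 all 17 lay below the mean of the other lines, with a median of -0.63. Running medians over 7 neighbouring genes were above 0 in GCT27 for 48 of 53 windows and in GCT44 for 0 of 53. Neighbouring windows overlap, and each line is set against the mean of the others, so neither windows nor lines are independent here. TCam-2 was above 0 in 23 windows and NT2D1 in 39. The highest window in NT2D1 and the lowest in TCam-2 both spanned LDHB to SSPN, at 1.14 and -1.05.

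**Figure D3:**
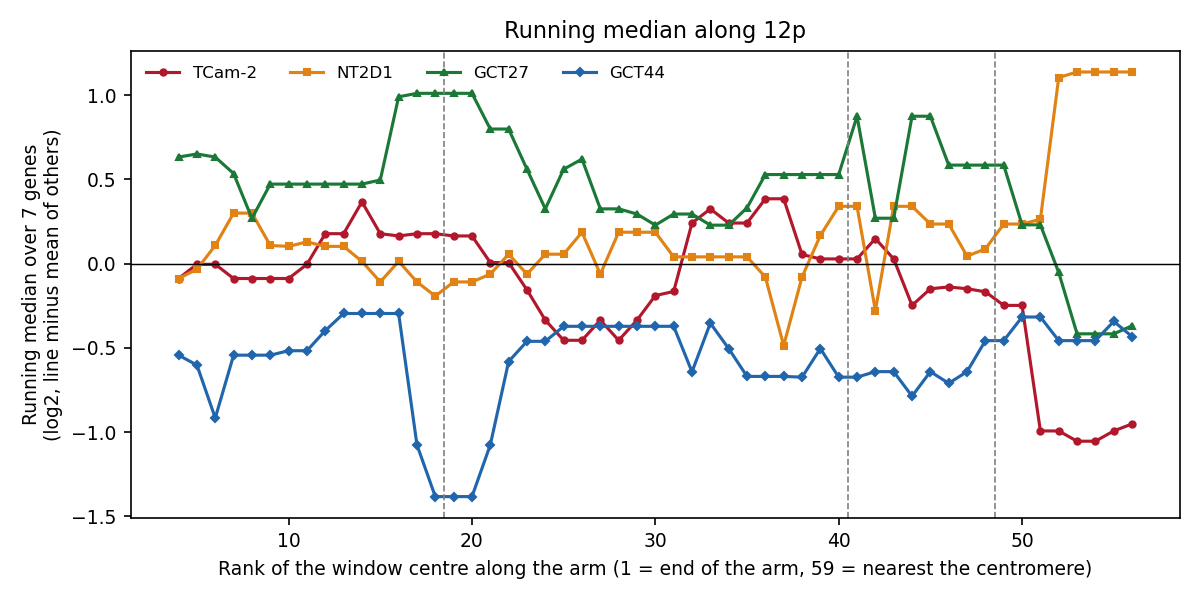
Running median over 7 neighbouring listed genes of the difference of each line from the mean of the other 3 on the log2 scale (y axis) against the rank of the window centre along 12p (x axis, ranks and not distances). Dashed lines divide the 4 stretches. GCT44 (blue diamonds) stays below 0 in all 53 windows, which overlap. On the probe sets used, GCT27 (green triangles) is above 0 in the first 48 and below it in the windows nearest the centromere.

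A gene counted as set apart in a line where its level was at least 2-fold past that of every other line. The rule reads size alone, without an error. TCam-2 had 3 genes higher, against 4.62% of all genes, and 0 lower, against 3.13%. NT2D1 had 3 higher (background 2.81%) and 0 lower (1.98%). GCT27 had 4 higher (3.16%) and 1 lower (1.86%). GCT44 had 0 higher (4.86%) and 3 lower (4.45%). The counts moved with the lines compared and the scaling. The 4 genes higher in GCT27 became 10 without NT2D1, 7 without TCam-2 and 8 with arrays scaled to the added controls. The 3 lower in GCT44 became 7, 6 and 9 under the same changes. Without GCT27, 5 were higher in TCam-2 and 6 in NT2D1, and without GCT44, 5 were higher in NT2D1 and 5 each lower in TCam-2 and NT2D1. In all, 12 of the 59 genes were set apart in at least 1 line (14 calls), while 24.3% of all genes were. At 4-fold, NT2D1 had 2 higher (0.523%), BHLHE41 and SSPN, and 0 lower (0.241%). GCT44 had 0 higher (1.7%) and 1 lower (1.69%), SCNN1A. TCam-2 had 0 higher (1.49%) and 0 lower (0.744%), and GCT27 0 higher (0.603%) and 0 lower (0.322%). Of the 163 other short arm genes, 24 (14.7%) were higher in GCT27 and 0 lower.

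**Figure D4:**
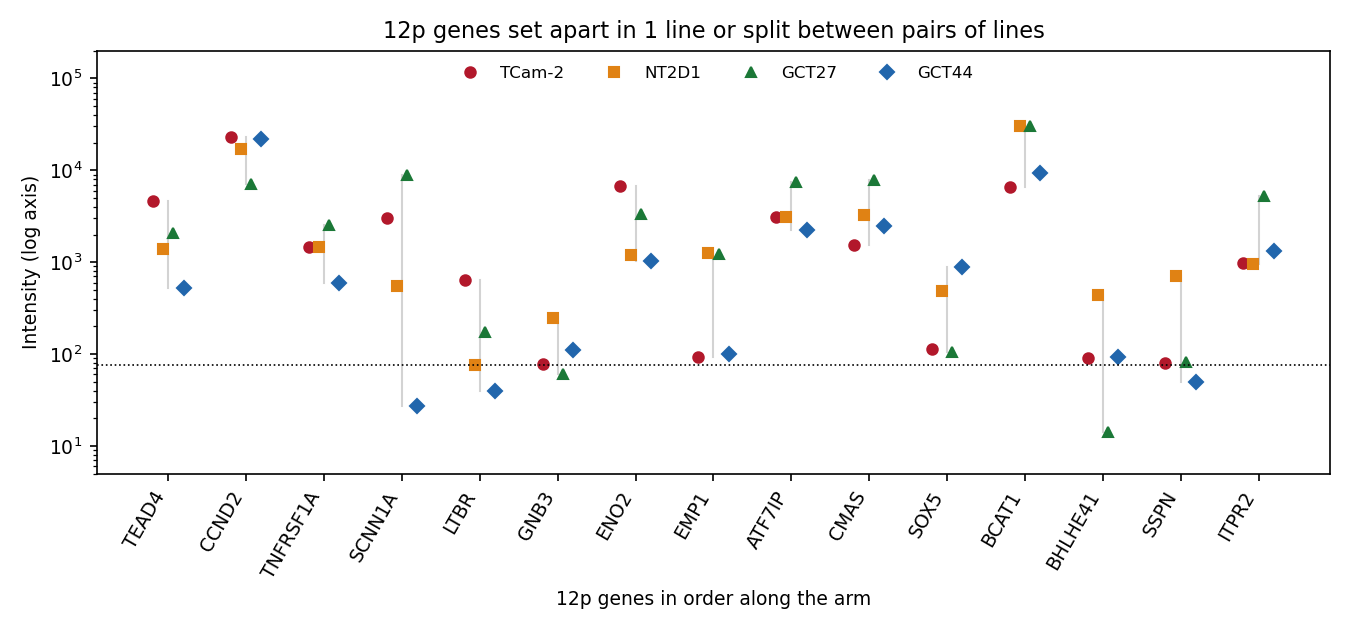
Intensity (y axis, log axis) in the 4 lines of the 15 listed 12p genes (x axis, in order along the arm) that were set apart in 1 line by 2-fold or split 2 lines from the other 2 by 2-fold. Each point is 1 array, grey lines join the lowest and highest line and the dotted line is the floor of 76.4; SCNN1A spans the widest range of the 59 genes, at least 117-fold.

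Among 6 genes of the cell cycle and DNA repair, CCND2 was the member set apart. It encodes cyclin D2, which drives entry into the DNA replication phase and is a known 12p gene of germ cell tumours. CCND2 had 7135 in GCT27, against 23278 in TCam-2, 16858 in NT2D1 and 22044 in GCT44. GCT27, the line with the highest median over the arm, was thus the lowest for CCND2, with a margin of -1.24 (2.36-fold) to the next line. GCT27 was also the lowest line on its 3 other probe sets, with margins of -1.73, -0.53 and -0.27, and the margin was -0.86 with the median over probe sets.

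CDKN1B, the cyclin-dependent kinase inhibitor p27, had its highest level in GCT44 at 10584, against 8098 in TCam-2, 6484 in NT2D1 and 5679 in GCT27. CDKN1B and CCND2 were the members of this group lowest in GCT27. RAD51AP1, a DNA repair gene, had 9630 in TCam-2, 16266 in NT2D1, 11626 in GCT44 and 16405 in GCT27. FOXM1, a transcription factor of mitotic genes, had 1988 in TCam-2 and 2478 to 4347 in the other lines, and NCAPD2, a condensin subunit, had 1514 in TCam-2 and 2565 to 4373. These 3 genes were lowest in TCam-2, each within 2-fold of the next line. RAD52, a recombination mediator, had 439 in GCT27 and 159 to 258 elsewhere.

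Of 11 genes of chromatin and transcription, 3 were set apart. TEAD4, a DNA-binding partner of YAP in the Hippo pathway and a factor of the early trophectoderm, had 4596 in TCam-2, 2085 in GCT27, 1400 in NT2D1 and 528 in GCT44. It was called at both ends, higher in TCam-2 with a margin of 1.14 and lower in GCT44 with -1.41. Its other probe set had the same highest and lowest line, with margins of 0.45 and -1.09. ATF7IP, a partner of the histone methyltransferase SETDB1, had 7476 in GCT27, against 3130 in TCam-2, 3069 in NT2D1 and 2237 in GCT44. Its margin was 1.26, and GCT27 was highest on all 3 other probe sets. With the median over probe sets, the margin was 0.79 for TEAD4 in TCam-2 and 0.81 for ATF7IP, short of the rule, and with arrays scaled to the added controls that of TEAD4 was 0.89.

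BHLHE41, a basic helix-loop-helix repressor of the circadian clock, had 436 in NT2D1, against 89.8 in TCam-2, 14.1 in GCT27 and 93.2 in GCT44. Its margin was 2.22 (4.67-fold), and 1 other probe set above the floor gave 0.32. SOX5, a transcription factor of cartilage and neural development, had 485 in NT2D1 and 885 in GCT44, against 115 in TCam-2 and 106 in GCT27. That split of the lines into pairs, with a gap of 4.23-fold, is not counted by the rule of 1 line against the rest, and it rests on this probe set. Of the other probe sets of SOX5 that passed the floor on an array, one had 149 in GCT44 and at most 5.30 elsewhere, and one had 65.6 in GCT44 as its lowest, against 87.8 to 97.8. CREBL2, a bZIP protein and the brightest of the group not set apart, had 5705 in GCT27, 4055 in TCam-2, 2861 in NT2D1 and 2594 in GCT44. ATN1, a nuclear co-repressor, had the narrowest range, with 161 in TCam-2, 144 in NT2D1, 123 in GCT44 and 105 in GCT27. KDM5A, a histone demethylase, had 2808 to 4313.

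The 10 genes of sugar, energy and small molecule metabolism held the brightest members. GAPDH had 36854 in TCam-2, 35564 in NT2D1, 41777 in GCT44 and 33234 in GCT27 on one of the array maker's control probe sets. LDHB, a lactate dehydrogenase subunit, had 27706, 30927, 33079 and 29404 in the same order of lines, a range of 1.19-fold. Its other probe set had GCT44 as the lowest line and not the highest, at 27378, against 28315 to 32388 elsewhere. TPI1, triosephosphate isomerase, spanned 1.24-fold and the glucose transporter SLC2A3 1.53-fold. Over the 59 genes the median range was 2.51-fold, and 2.12-fold over all genes.

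ENO2, the neuronal enolase, had 6719 in TCam-2, against 3304 in GCT27, 1205 in NT2D1 and 1021 in GCT44, a margin of 1.02 for TCam-2 that became 0.78 when arrays were scaled to the added controls. CMAS, which activates sialic acid for glycan synthesis, had 7794 in GCT27, against 3280 in NT2D1, 2472 in GCT44 and 1527 in TCam-2, a margin of 1.25. GCT27 was also the highest line on the other probe set of CMAS, with a margin of 0.72, short of the rule. BCAT1, the cytosolic branched-chain aminotransferase, had 30008 in NT2D1 and 30393 in GCT27, against 6610 in TCam-2 and 9329 in GCT44. It split NT2D1 and GCT27 from the other pair by 3.22-fold. The same pair was higher on its other probe sets, but NT2D1 and GCT27 were not level on all of them. One had 1259 in NT2D1 and 8060 in GCT27, another 2887 and 5632, and the brightest of them 26860 and 27463. NDUFA9, a subunit of respiratory complex I, had 11698 in GCT27 and 3589 to 6234 elsewhere. TIGAR, a fructose bisphosphatase that lowers glycolysis, had 13521 in GCT27 and 4693 to 8864 elsewhere. Both had GCT27 as the highest line, within 2-fold of the next.

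Receptors, channels and membrane proteins held 6 of the 12 genes set apart. SCNN1A, the alpha subunit of the epithelial sodium channel, had 8938 in GCT27, 3061 in TCam-2, 554 in NT2D1 and 27.4, below the floor, in GCT44. It spanned at least 117-fold, the widest range of the 59 genes, and was called higher in GCT27 (2.92-fold) and lower in GCT44 (at least 7.25-fold). Its 2 other probe sets reached at most 107 on any array, and with the median over probe sets the margin was -0.30 in GCT27 and 0 in GCT44. Neighbouring LTBR, the lymphotoxin beta receptor, had 647 in TCam-2 and 175 in GCT27, against 75.1 in NT2D1 and 39.4 in GCT44, both below the floor. Its margin was 1.88 in TCam-2, and its only other probe set above the floor had its highest value in GCT44, at 99.9, against 94.2 in NT2D1, 15.1 in TCam-2 and 9.55 in GCT27. TNFRSF1A, a receptor for tumour necrosis factor beside them on the arm, had 600 in GCT44, against 1464 in TCam-2, 1460 in NT2D1 and 2545 in GCT27, a margin of -1.28. On the probe sets used, all 3 neighbours were lowest or below the floor in GCT44, which the other probe set of LTBR did not show.

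SSPN, sarcospan of the dystrophin complex, had 706 in NT2D1, against 79.1 in TCam-2, 82.1 in GCT27 and 49.3 in GCT44, which put it barely above or below the floor outside NT2D1. It stood 8.60-fold above the next line, the widest upward margin of the 59 genes, and 2 other probe sets above the floor gave margins of 1.78 and 3.40 on the log2 scale. SSPN and BHLHE41, both set apart in NT2D1, are consecutive among the listed genes. ITPR2, an inositol trisphosphate receptor that releases calcium from the endoplasmic reticulum, follows them and had 5263 in GCT27, against 974 in TCam-2, 950 in NT2D1 and 1337 in GCT44. Its margin was 1.98, and its 3 other probe sets gave 0.99, 2.11 and 2.31.

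GNB3, a G protein beta subunit, had 244 in NT2D1, against 78.9 in TCam-2, 60.4 in GCT27 and 112 in GCT44, a margin of 1.12 on its single probe set. EMP1, an epithelial membrane protein, had 1250 in NT2D1 and 1221 in GCT27, against 92.7 in TCam-2 and 99.2 in GCT44. This gap of 12.3-fold was the widest of 6 genes that split the lines into pairs by 2-fold or more, for which the background was 8.9% of all genes. The others were SCNN1A, LTBR and ENO2, with TCam-2 and GCT27 above NT2D1 and GCT44, and BCAT1 and SOX5 as given. The splits were looked at after the values were seen. Of the genes within the rule, LRP6, a WNT co-receptor, had 7380 in GCT27, 5442 in NT2D1, 3672 in GCT44 and 2930 in TCam-2. CACNA1C, a calcium channel subunit, had 91.8 in GCT27 and lay below the floor in TCam-2 (51.4), NT2D1 (24.9) and GCT44 (27.9).

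Promoter sequence was set beside 4 of the genes that neared or fell below the floor in some lines. The reason was that the study sets expression beside DNA methylation, which in human cells falls mainly on CG pairs. The 4 genes shown were chosen after their values were seen. RefSeq promoter windows (GRCh38.p14) were matched for 45 of the 59 genes, and CG was counted in the 250 bases before each start, a motif that reads the same on both strands and cannot overlap itself. The 68 windows of the 12p genes held a median of 18 CG and the 35116 windows of all genes 11, and CG was found at least once in 98.5% and 93.9% of them. The windows of EMP1 (chr12:13196476-13196725, plus strand), SSPN (chr12:26195086-26195335, plus strand), BHLHE41 (chr12:26125038-26125287, minus strand) and LTBR (chr12:6383912-6384161, plus strand) are printed 5' to 3' on the strand of the gene, with CG in capitals.
EMP1: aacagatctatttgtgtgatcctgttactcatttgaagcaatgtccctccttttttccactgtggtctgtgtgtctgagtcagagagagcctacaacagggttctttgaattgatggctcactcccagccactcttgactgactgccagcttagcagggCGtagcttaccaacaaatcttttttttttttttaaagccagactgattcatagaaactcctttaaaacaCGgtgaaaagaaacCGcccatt
SSPN: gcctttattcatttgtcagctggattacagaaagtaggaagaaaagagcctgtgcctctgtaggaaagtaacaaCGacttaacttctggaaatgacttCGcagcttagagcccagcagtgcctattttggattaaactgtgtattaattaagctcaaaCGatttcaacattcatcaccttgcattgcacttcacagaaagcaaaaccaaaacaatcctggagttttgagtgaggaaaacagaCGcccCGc
BHLHE41: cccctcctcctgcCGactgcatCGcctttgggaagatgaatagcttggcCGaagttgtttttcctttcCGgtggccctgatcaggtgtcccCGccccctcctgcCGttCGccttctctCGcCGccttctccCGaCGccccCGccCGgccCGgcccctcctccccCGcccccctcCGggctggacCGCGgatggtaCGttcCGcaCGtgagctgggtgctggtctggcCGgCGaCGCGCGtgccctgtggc
LTBR: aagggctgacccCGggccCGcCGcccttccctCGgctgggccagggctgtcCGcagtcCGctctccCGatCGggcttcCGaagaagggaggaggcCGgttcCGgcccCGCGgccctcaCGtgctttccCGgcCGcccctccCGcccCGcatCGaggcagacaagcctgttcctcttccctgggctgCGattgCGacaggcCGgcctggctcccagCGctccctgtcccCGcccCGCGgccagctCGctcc

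EMP1 held 3 CG, a number that 77.1% of all windows reached, and the window of SSPN printed here 5 (65.7%). BHLHE41 held 26 (19.6%) and LTBR 27 (17.7%). A second RefSeq start of SSPN had 27 CG in its window. The EMP1 window was thus poorer in CG than those of BHLHE41 and LTBR, and SSPN had a window of each kind, while all 4 genes were near or below the floor in 2 or more lines. Methylation was not analysed here, and these counts describe the reference sequence alone.

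The remaining 3 groups held no gene set apart, and GCT44 lay below the mean of the other lines for each of their genes. Over all genes, 24.3% were set apart in some line and 53.8% lay below that mean in GCT44. In RNA, protein synthesis, folding and transport, GCT27 was highest for 7 of 8 genes and GCT44 lowest for 7 of 8, with medians of 0.74 and -0.63. NOP2 and EMG1, which help build ribosomes, had 2686 and 13764 in GCT27, against 1209 to 1930 and 6089 to 10673 elsewhere. The Hsp90 co-chaperone FKBP4 had 8828 in GCT27, against 2844 in GCT44, 5401 in TCam-2 and 6326 in NT2D1. PEX5, the receptor for peroxisomal import, had 3922 in GCT27, against 1027 in GCT44, 3048 in TCam-2 and 1647 in NT2D1. STRAP, a protein of the SMN complex and the exception for GCT27, had 23889 in NT2D1 and 23829 in GCT27, against 19564 in TCam-2 and 17931 in GCT44, a range of 1.33-fold.

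Of 7 kinases, phosphatases and ubiquitin pathway genes, 5 were lowest in GCT44 and all 7 lay below the mean of the other lines there, with a median of -0.84. WNK1, a kinase of ion transport, had 7431 in GCT27, 4827 in NT2D1, 4513 in TCam-2 and 3591 in GCT44. USP5, a deubiquitinase, had 29.6 in GCT44, below the floor, against 134 in TCam-2, 146 in NT2D1 and 130 in GCT27. Of the 6 scaffolds and others, 5 were lowest in GCT44, which stood at -0.47. TULP3, a trafficking protein of the primary cilium, had 1548 in GCT44, against 2450 in TCam-2, 2136 in NT2D1 and 2075 in GCT27. PTMS had 141 in GCT44, 201 in TCam-2, 148 in NT2D1 and 198 in GCT27.

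TCam-2 was also set against the 3 non-seminoma lines, which is the contrast of the study, with limma over all 14926 genes. The spread in this fit comes from 3 lines of different subtypes, with 2 residual degrees of freedom, and TCam-2 is taken to vary as they do. Of all genes, 0 passed an adjusted p of 0.05, the 59 included. At an unadjusted p under 0.05 stood 903 of all genes and 1 of the 59, LTBR, with a difference of 3.01 (SE 1.02) on unfloored log2 values, an unadjusted p of 0.0332 and an adjusted p of 0.788 in limma. Values of LTBR in 2 of the 3 other lines lay below the floor, so this difference is not a measured size. TEAD4 (1.99, SE 0.89) and ENO2 (2.07, SE 0.81) had adjusted p values of 0.864 and 0.821 in limma. CCND2, higher by 0.75 (SE 0.69), had 0.967.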

How the data were processed

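Total RNA of 4 cell lines was labelled with biotin and hybridized to single-colour arrays of 54675 probe sets, 1 per line. The values deposited by the authors are intensity values on a linear scale. The submitters' processing notes name RMA, which gives log2 values, so these are not its usual output, and the authors' scaling is not stated. The array annotation gave 41097 probe sets with 1 gene symbol, 1801 with several and 11777 with none. Each gene was taken as its own probe set with the highest mean log2 value. The mean of linear values was tried first, and log2 was kept after both had been seen. Genes reaching 76.4 (the median of all values) on an array were compared, lower values were set to it, and log2 was taken here.

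The 59 genes, their role groups and the tests were chosen with earlier results of these data known. Values are given for CCND2, for genes called at 2-fold, and per role group for the brightest and least variable other gene. Other 12p genes named (CDKN1B, FOXM1, NCAPD2, RAD52, SOX5, KDM5A, TPI1, SLC2A3, BCAT1, NDUFA9, TIGAR, EMP1, NOP2, EMG1, FKBP4 and PEX5) were picked after their values were seen. Gene order came from RefSeq (GRCh38.p14), with the arms divided at the widest gap between genes. The files name no build, so the only coordinates given are those of the RefSeq promoter windows. limma 3.58.1 (R 4.3.3) was used with an intensity trend and Benjamini-Hochberg adjustment. The rule of size, the difference of a line per gene and limma were tested on simulated data. The simulated shifts were put into TCam-2 alone, in genes of small spread, and were larger than the arm medians reported here. Medians over the arm, its stretches and the running windows were not tested in that way. The number of arrays limits the precision.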

Additional observations from a re-analysis of the deposited data

How the results depend on the processing

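Alternatives changed the probe set, filter, floor, normalization, size of call or comparison line, or left out each line. A median was taken as unmoved within 0.1, and a count within 1.5-fold, limits set after the data were seen. Stretches are called I (KDM5A to NDUFA9), II (to SLC2A3), III (to STRAP) and IV (to PPFIBP1). With the median over probe sets (55 of the 59 genes), 1 gene was higher in TCam-2, 1 lower in NT2D1 and 0 lower in GCT27. The arm median was then -0.060 in NT2D1, of the other sign, and -0.40 in GCT44. TCam-2 had -0.15 in II, -0.32 in III and -0.28 in IV, NT2D1 0.034 in III and -0.079 in IV, of the other sign. GCT27 had 0.87 in III and 0.57 in IV, and GCT44 -0.40 in I, -0.46 in III and -0.28 in IV. The margin of SCNN1A in GCT27 was -0.30, of the other sign. Without probe sets ending in _s_at or _x_at, 46 of the 59 genes were left. CCND2, TNFRSF1A, CMAS and BHLHE41 were among those lost, so the stretches held fewer genes. Then 0 were lower in GCT27, whose medians were 0.62 in II, 0.27 in III and 0.55 in IV, and NT2D1 had 0.69 in IV. With the stricter filter (54 of the 59 genes) GCT27 had 0.59 in II. With no floor 2 were lower in GCT27, which had 0.54 in II, and TCam-2 had -0.84 in IV. With quantile normalization GCT27 had 0.11 in IV. With arrays scaled to the added controls, 1 gene was higher in TCam-2, 8 were higher in GCT27 and 9 lower in GCT44. GCT27 then had 0.84 over the arm and 0.86, 0.77, 0.91 and 0.29 in I to IV, and GCT44 -0.91 over the arm and -0.92, -0.91, -1.10 and -0.82. At a margin of 2, which is stricter by construction, 0 were higher in TCam-2, 0 higher and 0 lower in GCT27 and 1 lower in GCT44. Against the mean of the other lines, counts higher and lower were 5 and 6 in TCam-2, 9 and 6 in NT2D1, 12 and 3 in GCT27 and 1 and 13 in GCT44. Against their median, TCam-2 had -0.46 in IV, NT2D1 0.40 in III and 0.67 in IV, GCT27 0.56, 0.89 and 0.053 in II to IV, and GCT44 -0.61 in III and -0.10 in IV.

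Leaving out each other line gave 3 to 5 higher and 0 to 5 lower in TCam-2, 3 to 6 and 0 to 5 in NT2D1, 4 to 10 and 1 to 2 in GCT27, and 0 to 1 and 4 to 7 in GCT44. Fewer lines to exceed can only add calls. The 10 came without NT2D1 and the 5 lower in TCam-2 and NT2D1 without GCT44. Arm medians ran between -0.35 and 0.015 in TCam-2, -0.065 and 0.27 in NT2D1, 0.41 and 0.57 in GCT27, and -0.72 and -0.37 in GCT44. In I to IV, TCam-2 ran between -0.29 and 0.25, -0.19 and 0.075, -0.45 and -0.057, and -1.0 and -0.46. NT2D1 ran between -0.13 and 0.22, -0.088 and 0.14, 0.14 and 0.54, and 0.42 and 0.67. GCT27 ran between 0.48 and 0.65, 0.37 and 0.59, 0.44 and 0.81, and -0.12 and 0.078. GCT44 ran between -0.71 and -0.38, -0.59 and -0.34, -0.94 and -0.43, and -0.74 and -0.12. The value of 0.015 came without GCT27 and that of -0.065 without GCT44. The arm medians of GCT27 and GCT44 kept their sign in every alternative run, and limma called 0 of the 12p genes in each of its 5. With the probe set of the highest linear mean, the first tried, 5 genes were higher in GCT27. That choice, the GAPDH control probe sets left out and the split of lines in pairs were chosen after seeing the data. Beyond those stated as by construction, the causes were not tested. No paired analysis was possible because each line has 1 array.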
